A study of Canis lupus familiaris with 23 samples.

Results

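The 15 canine osteosarcomas of this series were divided by their level of CXCL8, also called interleukin-8. A tumor was chosen as CXCL8-high when its value of 1 CXCL8 probe set, the brighter of both on the array, was 7.8 or more on the log2 scale and as CXCL8-low when it was below, which gave 8 and 7 tumors of 15, out of 23 samples in the series. The members of each class were therefore selected on CXCL8 itself, and its own difference between them is a description without a test. Every other gene was then compared between the classes, with both CXCL8 probe sets left out.

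CXCL8 is a chemokine that draws neutrophils through the receptors CXCR1 and CXCR2 and promotes the growth of vessels. Its gene is transcribed after signals such as interleukin-1, tumor necrosis factor and cell stress, in large part through the transcription factor NF-κB, and tumor cells, macrophages and stromal cells can all make it. In osteosarcoma, a malignancy of bone-forming cells that arises spontaneously in pet dogs, it is known as one of several secreted factors of tumor cells and their surroundings.

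The tumors were primary osteosarcomas removed at definitive surgery before chemotherapy, each from a dog with the disease and each measured on 1 array. The labels give no genotype, breed, age or treatment that separates the tumors, so whether the classes differ in these was not tested. The series also holds 2 cell lines derived from canine osteosarcoma and 6 normal organ samples (kidney, liver and lymph node, 2 of each) taken from dogs of a research colony. These 8 samples entered no test and are given beside the tumors for scale. Bone matrix genes marked the tissue: COL1A1, COL1A2 and SPARC lay above the highest normal sample in 15 of 15 tumors, whereas ALPL did so in 4 and BGLAP in 3.

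The probe set used for the classes read 4.13 in tumor 13, 5.07 in tumor 6, 5.08 in tumor 4, 5.21 in tumor 12, 5.29 in tumor 1, 6.07 in tumor 14 and 7.48 in tumor 10, which made the CXCL8-low class. It read 8.19 in tumor 8, 8.23 in tumor 9, 8.58 in tumor 7, 9.11 in tumor 11, 10.15 in tumor 3, 10.31 in tumor 2, 12.23 in tumor 5 and 12.76 in tumor 15, the CXCL8-high class. The class means were 9.95 ± 1.77 (SD, n = 8) and 5.48 ± 1.05 (SD, n = 7). The levels formed a series rather than a pair of separate clusters: tumor 10 lay just outside the threshold and tumor 8 just inside it, 0.70 apart, a gap smaller than those of 1.42 below tumor 10 and 1.93 below tumor 5. The cell lines read 9.53 and 12.56, and the normal samples 3.47 to 4.98.

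**Figure D1:**
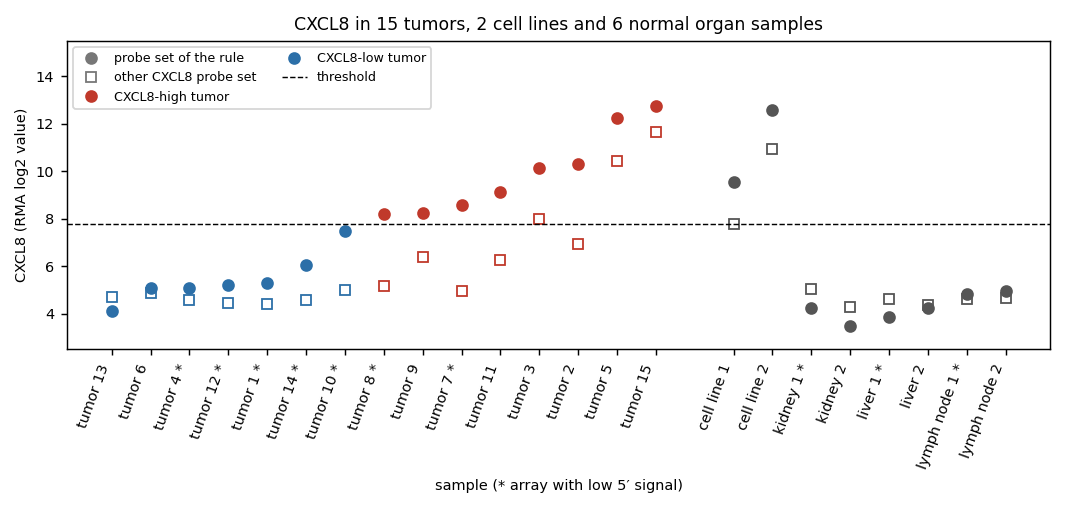
RMA log2 value of CXCL8 (y axis) in each of the 23 samples (x axis), with the tumors in the order of the probe set used for the classes (filled circles) and the other CXCL8 probe set as open squares. Red marks the 8 CXCL8-high and blue the 7 CXCL8-low tumors, the dashed line is the threshold of 7.8, and the squares of tumors 7 and 8 lie at 4.94 and 5.16, close to those of the CXCL8-low tumors.

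The second CXCL8 probe set read lower. It was 4.94 to 11.66 with a median of 6.66 in CXCL8-high tumors and 4.44 to 5.02 with a median of 4.60 in CXCL8-low tumors. By this probe set tumor 7 at 4.94 lay within the CXCL8-low range and tumor 8 at 5.16 just above it. The other 6 CXCL8-high tumors were at 6.29 or more. The arrays of tumors 7 and 8 had low 5′ signal, as described next.

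Control probe sets of RNA and labelling quality were compared between the classes. The 5′ index, the mean over actin and Gapdh of the 3′ minus 5′ probe set difference, is high where the labelled RNA lacks its 5′ ends. It was 1.15 ± 1.71 (SD) in CXCL8-high and 2.60 ± 1.74 in CXCL8-low tumors, a difference of -1.45 with p = 0.127 by an exact two-sided permutation test over 6435 labellings. An index above 1.5, low 5′ signal, was found in 2 of 8 CXCL8-high tumors (7 and 8) and in 5 of 7 CXCL8-low tumors (1, 4, 10, 12 and 14). The Dap spike is read from a bacterial transcript that control mixes add to RNA samples. It was 3.19 to 4.93 in 10 tumors and 6.34 to 8.17 in the other 5, and whether the mix was added to every sample is not stated in the sources used here. It was above 6 in 4 of 8 CXCL8-high tumors (2, 5, 11 and 15) and in 1 of 7 CXCL8-low tumors (6). Class, 5′ signal and spike level are thus partly tied, and their parts in the class differences cannot be fully told apart.

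Tumor 5, the second highest for CXCL8, stood apart in its tissue markers. MYL2, the regulatory light chain of slow and cardiac muscle, was 12.89 there and 4.45 to 6.61 in the other 14 tumors. NEB, the giant thin-filament protein nebulin, was 9.34 there and at most 3.81 elsewhere. ADIPOQ, the fat hormone adiponectin, was 10.63 there and at most 7.52 elsewhere, and COL1A1 was 9.58 against 12.32 to 13.94. For many genes and lists below, the value without tumor 5 is given too.

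No probe set was called between the classes. Of 23834 probe sets tested with limma, 0 passed an adjusted p of 0.05 in either direction, a background of 0% called, and the smallest adjusted p was 0.377. At an unadjusted p under 0.05, 654 probe sets had higher values in CXCL8-high tumors (2.74% of those tested) and 1172 had lower values (4.92%). A covariate for the 5′ index again left 0 called, and 490 (2.06%) and 625 (2.62%) had an unadjusted p under 0.05. With the Dap spike as a covariate 0 were called and these counts were 531 and 401, and without tumor 5 they were 546 and 820 with 0 called. The median difference over all probe sets was -0.02. Values of genes below are therefore given as measured, and none of the differences between the classes is a call.

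Within the tumors with full 5′ signal (6 CXCL8-high and 2 CXCL8-low) 0 probe sets were called and the smallest adjusted p in limma was 0.0657, with 384 higher and 683 lower at an unadjusted p under 0.05. Within those with low 5′ signal (2 and 5) 0 were called as well, with 357 and 231. A test of whether the class difference itself differed between the arrays of low and full 5′ signal called 0 probe sets, with 549 at an unadjusted p under 0.05.

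The genes with the smallest p and higher values in CXCL8-high tumors were, in order, SLC2A3, FGF7, ADM, CCL2, ADAM9, NRG1, IL15, ARIH1, ATP1B1 and C9H17orf58. SLC2A3, the high-affinity glucose transporter GLUT3, ranged from 8.66 to 10.67 with a median of 9.66 in CXCL8-high and from 5.97 to 8.80 with a median of 7.28 in CXCL8-low tumors. The ranges overlapped only through tumor 10, at 8.80, above tumor 3, at 8.66. The difference was 2.51 ± 0.45 (SE; limma adjusted p = 0.484) and 2.58 with the 5′ index as a covariate.

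FGF7, a fibroblast growth factor made by stroma that acts on epithelium, was between 4.01 and 4.64 in the 7 CXCL8-low tumors. In CXCL8-high tumors it was 4.24 in tumor 7, 4.90 in tumor 3 and 6.69 to 8.53 in the other 6. The difference was 2.66. ADAM9, a membrane protease that sheds cell surface proteins, was 5.32 to 9.67 with a median of 7.39 against 3.67 to 5.93 with a median of 4.81, a difference of 2.49. Its 2 other probe sets differed by 2.01 and 0.69. ADAM9 was 5.59 to 9.67 in the 8 tumors with full 5′ signal and 3.67 to 5.66 in the 7 with low 5′ signal. Within each of these sets the CXCL8-high tumors lay above the CXCL8-low tumors.

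NRG1 and IL15 showed no overlap between the classes but small differences at low signal. NRG1, the growth factor neuregulin of the ERBB receptors, was 4.10 to 4.63 in CXCL8-high and 3.82 to 4.04 in CXCL8-low tumors, a difference of 0.36. It was 7.07 and 6.84 in the cell lines. IL15, a cytokine of lymphocyte and natural killer cell survival, was 4.44 to 5.36 against 3.92 to 4.37, a difference of 0.52 ± 0.12 (SE), while its other probe set differed by -0.026. Over the whole array 4 probe sets (0.0168%) had the lowest CXCL8-high tumor above the highest CXCL8-low tumor.

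Genes with the smallest p and lower values in CXCL8-high tumors were UBE4B, SPINK2, ZNF517, EBAG9, RBCK1, ELMOD3, PPFIBP2, GPAA1, GFUS and USP5. UBE4B, an enzyme that extends ubiquitin chains, was 7.40 to 8.28 with a median of 7.70 against 7.90 to 8.63 with a median of 8.35, a difference of -0.66. Tumor 7 at 8.28 was the only CXCL8-high tumor above the lowest CXCL8-low tumor, number 13. Its other probe set differed by 0.13, in the opposite direction.

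SPINK2, a serine protease inhibitor, was 5.47 to 8.32 with a median of 6.59 in CXCL8-high and 7.37 to 9.14 with a median of 8.82 in CXCL8-low tumors, a difference of -1.79. The classes did not overlap for RBCK1, a subunit of the linear ubiquitin chain complex that acts on NF-κB signalling (5.91 to 6.49 against 6.50 to 7.30). The classes nearly met there, at 6.491 in tumor 5 and 6.495 in tumor 4. They did not overlap either for GPAA1, a subunit of the enzyme that attaches GPI anchors to proteins, at 7.0 to 8.25 against 8.46 to 10.10, a difference of -1.05. Over the array 6 probe sets (0.0252%) had the highest CXCL8-high tumor below the lowest CXCL8-low tumor.

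**Figure D2:**
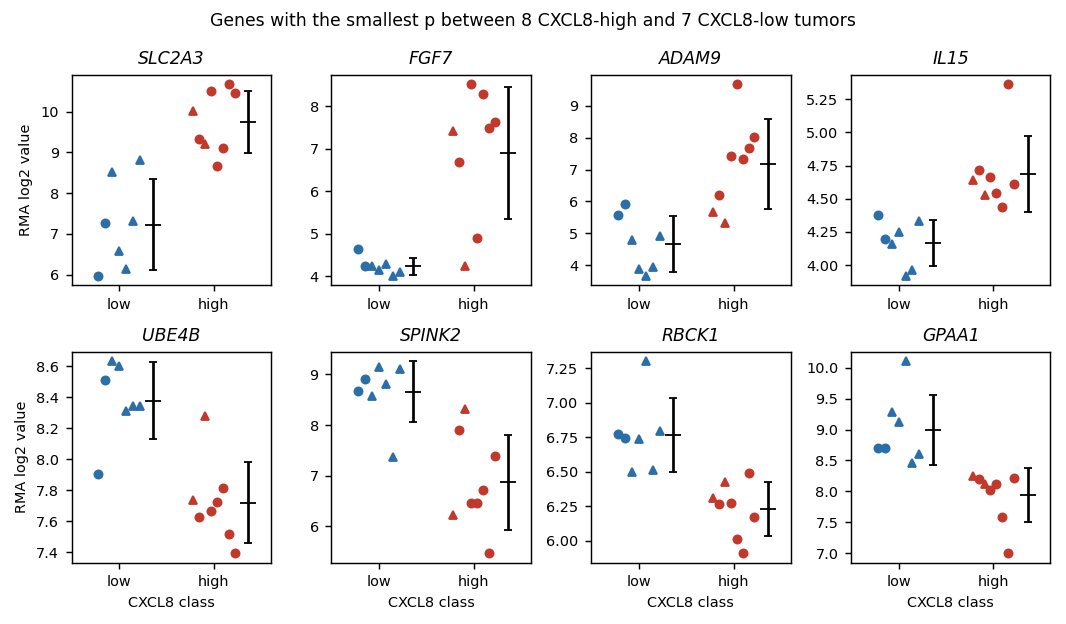
RMA log2 value (y axis) of 8 genes with a small p in the class comparison, by CXCL8 class (x axis), with 1 point per tumor, triangles for arrays of low 5′ signal, and the class mean with its SD as a bar. The IL15, RBCK1 and GPAA1 classes do not overlap, though those of RBCK1 nearly meet. FGF7 stays between 4.01 and 4.64 in CXCL8-low tumors, and no gene shown passed the adjusted threshold.

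Because CXCL8 was graded over the tumors, its value was also used as a number, with the slope of each gene on CXCL8 fitted by limma over the 15 tumors and given in log2 units of the gene per log2 unit of CXCL8. In this fit 15 probe sets rose with CXCL8 (0.0629% of those tested) and 3 fell (0.0126%) at an adjusted p under 0.05, and at an unadjusted p under 0.05 there were 1028 (4.31%) and 1601 (6.72%). The named genes that rose were CCL2, PTGS2, SRGN, SERPINA1, TNIP3, PLEK, IL6, SLC2A3, VCAM1, NFKBIZ and ADM, and those that fell were C8H14orf93 and ING4. The other 5 probe sets have no symbol in the annotation used. The graded fit was made a result of its own only after the data had been seen.

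The calls leaned on the tumors with the most CXCL8. Without tumor 5, and likewise without tumor 15, 0 probe sets were called, with a smallest adjusted p in limma of 0.0876 and 0.105. Over the fits that left out 1 tumor each, between 0 and 22 rose and between 0 and 4 fell. Leaving out any tumor other than 3 or 7 brought the rising count to 9 or fewer. Without the 2 highest tumors 0 were called, without the 2 tumors farthest from the median (15 and 13) 0 were called, and with the rank of CXCL8 in place of its value 0 were called. The sign of the slope was kept by 18 of 18 probe sets in each of these fits, and 18 of 18 had an unadjusted p under 0.05 in each. The 18 were selected for their slopes in these same tumors, so such counts, here and below, are no separate support.

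With the 5′ index as a covariate 4 rose and 1 fell, namely CCL2, PTGS2, 2 probe sets without a symbol, and C8H14orf93, which fell. With the Dap spike as a covariate 0 were called and 18 of 18 kept their sign with an unadjusted p under 0.05. Of the 5 tumors with the most CXCL8, 4 had a high Dap spike (tumor 3 did not), so spike and CXCL8 cannot be told apart over much of the range. Among full 5′ signal tumors alone 0 were called, and among low 5′ signal tumors alone 0 were called and 8 of the 18 had an unadjusted p under 0.05. With the other CXCL8 probe set as the number, 28 rose and 8 fell, 9 of them among the 18.

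CCL2, the chemokine that draws monocytes, was the named gene with the smallest p. It was 7.73 to 12.46 with a median of 9.55 in CXCL8-high and 5.94 to 8.59 with a median of 6.84 in CXCL8-low tumors. Its 3 highest values were 12.46 in tumor 5, 12.12 in tumor 15 and 11.89 in tumor 11. The slope was 0.71 ± 0.09 (SE; limma adjusted p = 0.00839), and it was 0.66 without tumor 5, 0.64 without the 2 highest tumors, 0.68 with the 5′ index and 0.63 with the Dap spike. The cell lines read 7.16 and 10.95, in the same order as their CXCL8.

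PTGS2, cyclooxygenase 2, which makes the precursor of prostaglandins, was 11.65 in tumor 15, 10.39 in tumor 5 and 8.65 in tumor 2, and 4.17 to 6.98 in the other 5 CXCL8-high tumors. In CXCL8-low tumors it was 3.04 to 5.74, so that tumors 9 and 7 at 4.17 and 5.16 lay within that range. The slope was 0.82 ± 0.11 (SE; limma adjusted p = 0.00839), 0.79 without tumor 5 and 0.71 with the Dap spike. Between the classes its difference of 3.06 was 1.66 with the Dap spike, with an unadjusted p of 0.109 in limma. In the cell lines it was 4.16 and 4.89, below most CXCL8-high tumors although their CXCL8 was high.

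IL6, a cytokine of the acute phase response and of bone resorption, had the steepest named slope, 0.97 ± 0.16 (SE; limma adjusted p = 0.0427). It was 12.29 in tumor 5, 11.93 in tumor 15 and 10.21 in tumor 11, against 3.83 to 6.94 in the other CXCL8-high tumors. In the CXCL8-low class it was 3.29 to 3.93 in 6 tumors and 6.94 in tumor 10, the tumor just below the threshold. Between the classes the difference was 3.72 ± 1.23 (SE), 3.07 without tumor 5 and 1.88 with the Dap spike, the last with an unadjusted p of 0.142 in limma. The slope was 0.75 with the Dap spike.

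NFKBIZ and TNIP3 are NF-κB target genes, the first a nuclear cofactor of NF-κB needed for a subset of its targets and the second a feedback inhibitor. NFKBIZ was 5.07 to 8.70 with a median of 6.11 in CXCL8-high and 3.78 to 5.46 with a median of 4.55 in CXCL8-low tumors, with a slope of 0.47. It was above 6 in tumors 2, 5, 11 and 15, which are 4 of the 5 tumors with a high Dap spike, and its slope was 0.23 with that spike as a covariate. TNIP3 varied over a narrow range of 3.25 to 4.65, with a slope of 0.13, and reached 6.07 in cell line 2.

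VCAM1, the adhesion molecule of activated endothelium and stroma, was 5.63 to 8.89 with a median of 7.73 against 3.93 to 7.15 with a median of 4.82, and its slope was 0.51. SRGN, the proteoglycan of secretory granules in blood cells, was 8.12 to 11.64 against 7.53 to 10.28, with a slope of 0.43. PLEK, a protein kinase C substrate of leukocytes and platelets, was 7.28 to 10.01 against 5.63 to 8.11, with a slope of 0.39. SRGN and PLEK were 3.55 to 5.0 in the cell lines, below every tumor.

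SERPINA1, the protease inhibitor alpha-1 antitrypsin, was called through a probe set that was not its brightest and that was 5.99 to 8.08 against 4.68 to 6.38, with a slope of 0.33. Its brightest probe set had a slope of 0.17 (limma adjusted p = 0.243) and the remaining probe set 0.04, neither called. ADM, the vasodilator peptide adrenomedullin, was 7.0 to 11.44 with a median of 9.13 against 5.27 to 8.37 with a median of 5.93, with a slope of 0.61. Tumor 4 held the one CXCL8-low value above 6.45. SLC2A3 had a slope of 0.49.

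C8H14orf93, an open reading frame, fell by 0.12 per log2 unit of CXCL8 (limma adjusted p = 0.0427; 0.0307 with the 5′ index). It was 4.95 to 5.83 in CXCL8-high and 5.58 to 6.46 in CXCL8-low tumors. Its 2 other probe sets had slopes of -0.03 and -0.07. ING4, a chromatin reader of the inhibitor of growth family, fell by 0.11 per unit, from 7.30 to 7.53 in CXCL8-low tumors to 6.51, 6.59 and 6.62 in tumors 5, 15 and 2.

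**Figure D3:**
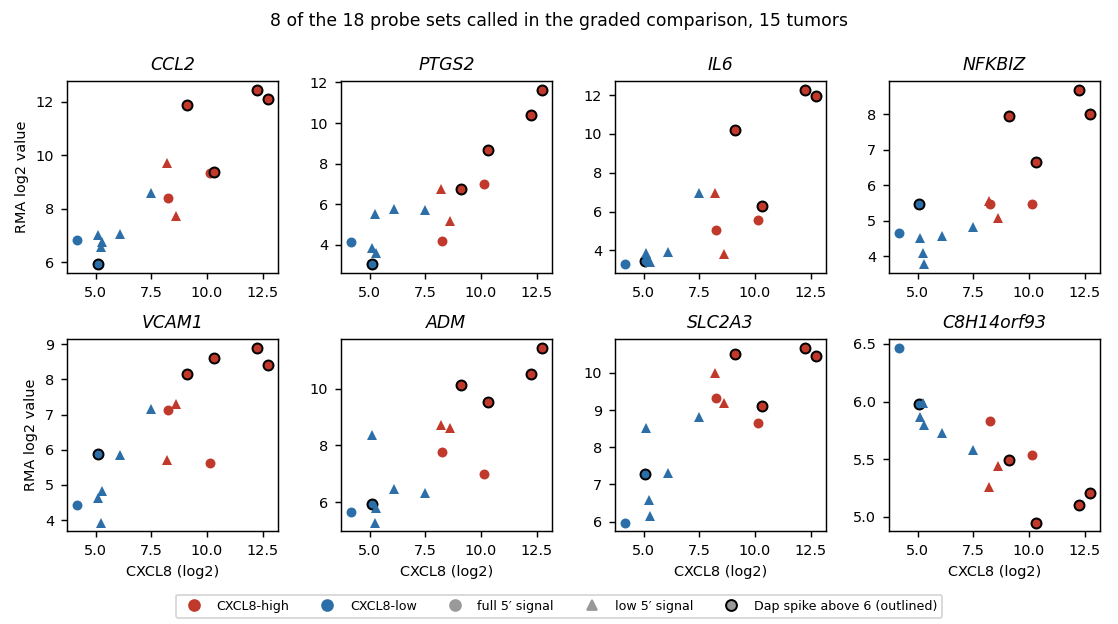
RMA log2 value of 8 called genes (y axis) against CXCL8 by the probe set of the rule (x axis, log2), with 1 point per tumor coloured by class, triangles for low 5′ signal and a black outline for a Dap spike above 6. CCL2 and PTGS2 rise over the range, IL6 is above 10 only in tumors 5, 11 and 15, C8H14orf93 falls, and 4 of the 5 tumors with the highest CXCL8 are outlined.

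The inflammatory lists were next described by counts and medians. The gene lists of this report were chosen with earlier results of these data known, and no test was made of any list. For scale, 2.74% of all probe sets had an unadjusted p under 0.05 with higher values and 4.92% with lower values. Their median difference was -0.02, so more of them lay below 0 than above it. Of 7 other chemokines measured, CCL2 and CXCL16 had an unadjusted p under 0.05 with higher values in CXCL8-high tumors and 0 with lower values, with a median difference of 0.33 against -0.02 over all probe sets. Without tumor 5 the median was 0.13 and CCL2 alone had an unadjusted p under 0.05, as was also so with the Dap spike as a covariate. CXCL16, a scavenger receptor and chemokine, was 7.34 to 8.72 against 5.70 to 7.95. CCL3 and CCL4, macrophage chemokines, differed by 0.33 and 0.38 (CCL4 by 0.13 without tumor 5), and CCL5 and CXCL10, which draw T cells, by -0.82 and -0.60. Of the ligands and receptors that share CXCR1 and CXCR2 with CXCL8, 1 of 9 was measured under 1 symbol: CXCR2 itself was 3.88 to 4.60 against 4.0 to 4.5.

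Among 11 interleukins and TNF family cytokines, 4 had an unadjusted p under 0.05 with higher values (IL6, IL15, IL33 and IL1RN) and 0 with lower values, and the median difference was 0.75, or 0.67 without tumor 5. IL33 lost that p without tumor 5 and with the 5′ index, and with the Dap spike as a covariate IL15 alone had it and the median was 0.23. On the graded scale 7 of the 11 had an unadjusted p under 0.05 and a positive slope, against the 4.31% of all probe sets, and 7 did so without tumor 5. IL1B, an inducer of CXCL8, was 8.05 in tumor 15 and 6.86 in tumor 5 but 3.12 to 3.63 in the other 13 tumors. IL1A was 7.91 in tumor 15, 4.82 in tumor 5 and 3.35 to 3.95 in the other 13. CSF2 was 8.95 in tumor 15 and at most 6.23 elsewhere. IL1A, IL1B and CSF2 are among the 7 genes, and without tumor 5 their high values were in tumor 15 alone. IL33, an alarmin of stroma and endothelium, was 4.29 to 9.99 against 4.12 to 5.89, with 5 CXCL8-high tumors above the CXCL8-low range. IL1RN, the natural blocker of the interleukin-1 receptor, differed by 0.89, while TNF differed by -0.13 and LIF by 0.00.

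In prostaglandin synthesis 2 of 6 genes had an unadjusted p under 0.05, PTGS2 and PTGES, both with higher values, and the median was 0.71. With the Dap spike as a covariate 0 of the 6 did and the median was 0.36. PTGES, which converts the product of PTGS2 to prostaglandin E2, was 7.01 to 10.58 with a median of 9.13 against 6.58 to 9.29 with a median of 7.64. Its difference was 1.39, or 1.53 without tumor 5. The constitutive enzyme PTGS1 differed by 0.45 and the receptor genes PTGER2 and PTGER4 by 0.37 and 0.97.

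Of 5 NF-κB feedback and response genes, NFKBIZ and VCAM1 had an unadjusted p under 0.05 and the median was 0.96, or 0.64 without tumor 5 and 0.75 with the Dap spike, both genes keeping an unadjusted p under 0.05 in each. All 5 had a positive slope at an unadjusted p under 0.05, and 4 did without tumor 5. NFKBIA, the inhibitor induced by NF-κB, was 8.55 to 12.13 against 8.35 to 10.29. The mitochondrial superoxide dismutase SOD2 was 7.99 to 10.11 against 7.20 to 8.62, and the adhesion molecule ICAM1 6.28 to 9.63 against 5.82 to 7.90. Immediate early and stress transcription factors had 0 of 6 at an unadjusted p under 0.05 in either direction, with FOS at 0.55, JUNB at 0.53 and KLF4 at 0.55. These were 0.24, 0.34 and 0.32 without tumor 5, and the list median of 0.54 became 0.28, or 0.02 with the Dap spike as a covariate, where EGR2 had an unadjusted p under 0.05 at 0.22.

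**Figure D4:**
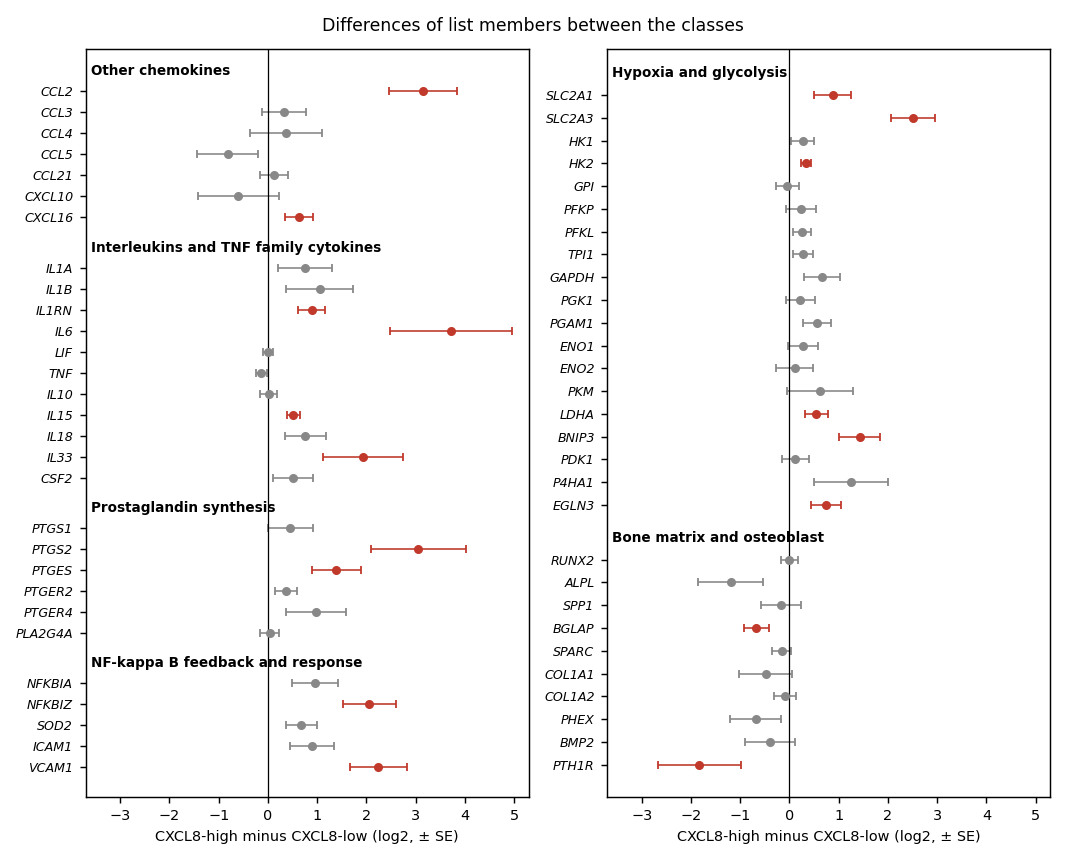
Difference between the classes (x axis, CXCL8-high minus CXCL8-low, log2, with the limma standard error as a bar) for each measured member of 6 gene lists (y axis). Red marks an unadjusted p under 0.05, which 10 inflammatory genes and 2.74% of all probe sets reached with higher values. Of the 10 bone genes, 0 has a difference above 0.

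Hypoxia and glycolysis genes had 18 of 19 differences above 0, a median of 0.33, and 6 with an unadjusted p under 0.05: SLC2A3, BNIP3, SLC2A1, EGLN3, LDHA and HK2. Over all probe sets 2.74% had such a p with higher values, and the median difference was -0.02. BNIP3, a mitophagy receptor induced by low oxygen, differed by 1.42 and its 3 other probe sets of high signal by 1.23 to 1.55. SLC2A1, the glucose transporter GLUT1, differed by 0.88, and LDHA, lactate dehydrogenase A, by 0.54. PGK1, ENO1 and TPI1 of the glycolytic chain differed by 0.22, 0.27 and 0.28, each with a p above the threshold. With the 5′ index as a covariate the list had 5 genes with an unadjusted p under 0.05 and a median of 0.26. Without tumor 5 it had 8 such genes and a median of 0.44, and with the Dap spike 4 genes and 0.46. EGLN3 was 3.08 to 3.31 in the 7 tumors with low 5′ signal and 3.24 to 5.28 in the 8 with full 5′ signal.

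Angiogenic factors had 3 of 7 with an unadjusted p under 0.05 (ADM, VEGFA and FGF2) and a median of 0.83, which was 0.52 with the 5′ index as a covariate and 0.36 with the Dap spike, where ADM alone kept that p. FGF2 also lost it without tumor 5. VEGFA, the main vessel growth factor, was highest in tumors 9, 15 and 3, at 7.82, 7.12 and 6.81. In the CXCL8-low class it was 6.08 in tumor 13 and at most 4.28 in the other 6. Its difference of 1.47 became 0.67 with the 5′ index, and the 7 tumors with the highest VEGFA all had full 5′ signal. Endothelial markers had 2 of 9 with an unadjusted p under 0.05, VWF at 0.88 and SELP at 1.04, and the median was 0.28. With the 5′ index, and also without tumor 5, 0 of the 9 did, and the median was 0.11 without tumor 5. SELE, the selectin of inflamed endothelium, was 9.17 in tumor 5 and 6.55 in tumor 11 and at most 4.96 elsewhere.

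Bone matrix and osteoblast genes, each by its brightest probe set, had 0 of 10 differences above 0. The median was -0.44, or -0.10 without tumor 5 and -0.03 with the Dap spike. The shared sign depended on tumor 5 and on the probe set. Without tumor 5 COL1A2 was at 0.11 and RUNX2 at 0.02, with the other genes of the list below 0. Other probe sets of SPARC differed by 0.42 and 0.27, those of COL1A2 by -0.78, -0.24, 0.07 and 0.87, and that of COL1A1 by -0.28. BGLAP and PTH1R had an unadjusted p under 0.05, which PTH1R lost without tumor 5, BGLAP lost with the 5′ index and both lost with the Dap spike. BGLAP, the bone matrix protein osteocalcin, was 4.58 to 5.97 with a median of 5.06 in CXCL8-high and 5.11 to 6.40 with a median of 5.94 in CXCL8-low tumors. Its brightest and other probe sets differed by -0.68 and -2.15. PTH1R, the parathyroid hormone receptor of osteoblasts, was 4.74 to 10.56 against 7.86 to 10.84, with 5 CXCL8-high tumors below the CXCL8-low range. ALPL, alkaline phosphatase, differed by -1.19, whereas RUNX2, the osteoblast master regulator, differed by 0.00 and SPP1 by -0.17.

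Extracellular matrix genes outside bone had 18 of 20 differences above 0, with a median of 0.63, and 2 with an unadjusted p under 0.05, COL3A1 at 1.41 and COL6A3 at 1.18. With the 5′ index 5 of the 20 had such a p (COL3A1, FBN1, FBLN2, THBS2 and MFAP5), without tumor 5 there were 4 (COL3A1, COL6A3, COL5A1 and COL12A1), and with the Dap spike COL3A1 alone. COL3A1 encodes the fibrillar collagen of soft connective tissue. Matrix proteases and inhibitors had 0 of 10 higher and 1 lower, MMP9, which osteoclasts and leukocytes secrete. MMP9 was 6.31 to 12.87 with a median of 9.98 against 10.47 to 12.98 with a median of 12.12, a difference of -2.12. Without tumor 5 it was -1.79 and had lost the unadjusted threshold, as it also did with either covariate. Without tumor 5 the protease list had 1 gene with such a p, the membrane-bound protease MMP14 at 0.96, and its median was 0.51 against 0.04 with tumor 5. Among these tumors MMP14 was 6.55 to 8.40 where 5′ signal was full and 5.0 to 5.85 where it was low. Osteoclast genes as a list had 1 of 8 above 0 and a median of -0.35, with ATP6V0D2, a subunit of the acid pump, at -1.97 and CTSK, cathepsin K, at -0.58. Without tumor 5 the median was -0.19 and CTSK was at -0.27, while ITGB3, CA2 and CLCN7 were above 0, at 0.49, 0.45 and 0.05. Of the 8, 0 had an unadjusted p under 0.05 without tumor 5 or with either covariate. In tumors 2, 5 and 8, 3 CXCL8-high tumors, ATP6V0D2 was 3.69 to 4.0, and it was 6.14 or more in every other tumor.

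TGFB1, a growth factor stored in bone matrix, was the gene of the Wnt and TGF-beta list with an unadjusted p under 0.05, at a difference of -1.20 and -1.44 with the 5′ index. With the Dap spike it was -0.86 and past that threshold no longer. It was 6.35 to 9.07 in CXCL8-high and 7.43 to 9.92 in CXCL8-low tumors. The list of 11 had a median of -0.06.

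Macrophage and myeloid markers did not move together. CD163, FCGR1A and ITGAM of 16 had an unadjusted p under 0.05 with higher values, while CD68 differed by -1.18 and CSF1R by -0.94. Other probe sets of CSF1R differed by -0.66 and 0.40. CD163, the hemoglobin scavenger receptor, was 6.85 to 9.89 with a median of 8.41 against 5.44 to 8.88 with a median of 6.65. FCGR1A, the high-affinity IgG receptor, was 6.90 to 8.83 against 4.48 to 7.99. CD68, a lysosomal protein of macrophages and osteoclasts, was lowest in tumors 5, 2 and 8 at 6.37, 7.48 and 7.68. The mean level of the list, centred per gene, ran from -0.41 to 0.97 in CXCL8-high and from -0.85 to 1.54 in CXCL8-low tumors, with the highest value in the latter. In bulk tissue, fewer cells of a type and less RNA per cell cannot be told apart.

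Of 16 listed markers of neutrophils, the cells that CXCL8 attracts, only 2 were measured under 1 symbol. ELANE, neutrophil elastase, was 4.75 to 5.16 against 4.89 to 5.57 and CXCR2 is given above. Neither had an unadjusted p under 0.05. In the tumors CXCR2 lay below the median of every array (4.79 to 4.94), and ELANE was near it, with 5.71 in cell line 2. At such low signal these markers cannot show whether the classes differed in neutrophils. T and B lymphocyte markers had 0 of 6 with an unadjusted p under 0.05 and a median of -0.04, and MHC class II presentation had 1 of 4, CTSS at 0.82, with a median of 0.82, and CTSS lost that p without tumor 5 and with the Dap spike. The interferon response had 0 of 10 and a median of -0.09. None of the 12 erythroid markers was measured under 1 symbol.

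Markers of other tissue moved with the classes through tumor 5. Skeletal muscle genes had 0 of 17 with an unadjusted p under 0.05 and a median difference of 0.71, which was -0.03 without tumor 5. Their mean level ran from -0.63 to 4.62 in CXCL8-high and from -0.56 to 0.35 in CXCL8-low tumors. Pericyte and smooth muscle genes had 0 of 6 and a median of 0.62, or 0.20 without tumor 5, and adipocyte genes 0 of 5 and -0.10. The part of muscle and fat tissue in the high cytokine values of tumor 5 was not tested; tumor 15, with similar CCL2, IL6 and PTGS2, had MYL2 at 4.63 and ADIPOQ at 4.26.

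Cell cycle genes had 0 of 8 with an unadjusted p under 0.05 and a median of -0.06, cartilage genes 0 of 4 and 0.26, and amino acid and glutamate transport genes 0 of 6 and 0.21. Ribosomal protein genes had 0 of 26 higher and 3 lower with a median of -0.04 (1 lower with the 5′ index, 2 without tumor 5 and 0 with the Dap spike), and respiratory chain genes 0 of 23 higher and 1 lower with a median of -0.19, which was -0.01 with the 5′ index. Of all probe sets, 4.92% were lower and 2.74% higher at that p. Heat shock genes had 1 of 9, HSPH1, and a median of 0.14. The stress response list had 1 of 11, HSPA5, the endoplasmic reticulum chaperone BiP, with a difference of 2.13 that was 0.73 with the 5′ index: it was 9.65 to 11.14 in the 8 tumors with full 5′ signal and 5.70 to 7.52 in the 7 with low 5′ signal.

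**Figure D5:**
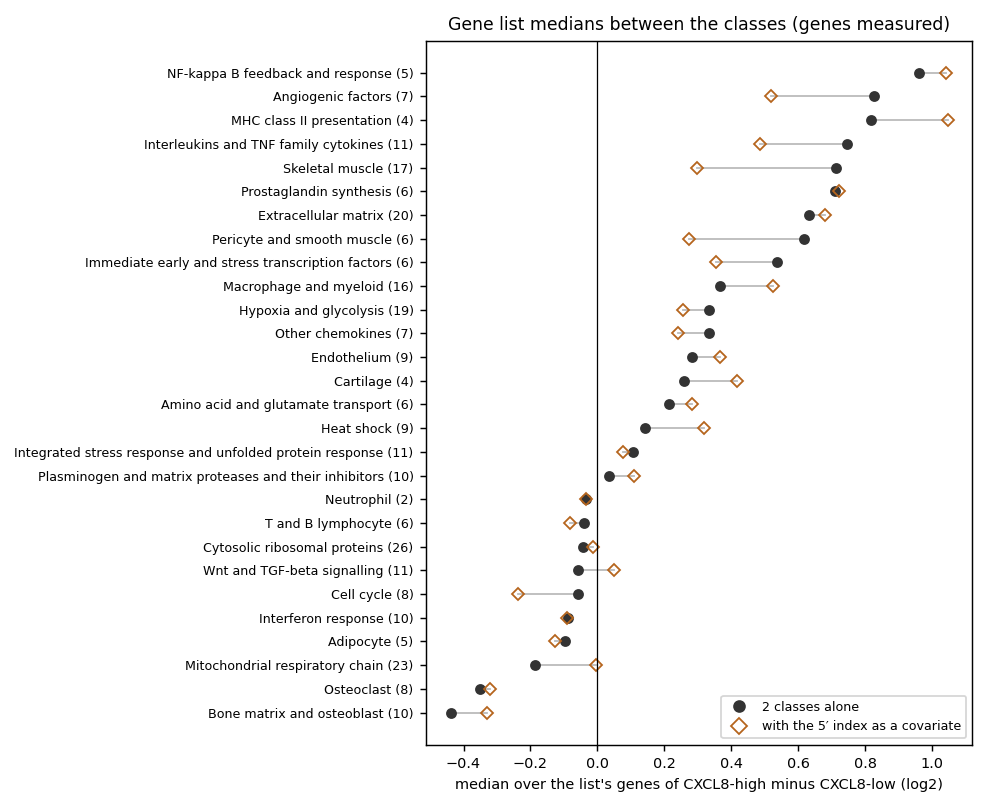
Median over the measured genes of each list (y axis, number of genes in brackets) of the difference between the classes (x axis, CXCL8-high minus CXCL8-low, log2), alone (filled circles) and with the 5′ index as a covariate (open diamonds). NF-κB feedback and response lies highest at 0.96 and bone matrix and osteoblast lowest at -0.44, while the angiogenic, skeletal muscle and pericyte medians move toward 0 with the covariate.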

How the data were processed

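Gene expression was measured on Affymetrix Canine Genome 1.0 arrays, all hybridized at the same facility as a group, per the study's methods. The authors summarized probe intensities by robust multichip averaging (RMA), which corrects background and quantile-normalizes the arrays, and deposited log2 values, from 2.52 to 14.17 over 23913 probe sets. Their software versions are not given in the sources used here. RMA compresses differences of dim probe sets and hides changes in total RNA. Arrays give no read depth, and the number of tumors limits the precision.

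From these values 77 control and 2 CXCL8 probe sets were set aside. The platform annotation, with symbols updated by gene ID, gave 1 symbol for 10549 probe sets. Where a gene had several probe sets, the brightest on average over the 23 samples stood for it. Classes and slopes were fitted on the 15 tumors by linear models with empirical Bayes moderation (limma 3.58.1, R 4.3.3). Tests were two-sided and adjusted by Benjamini-Hochberg over 23834 probe sets at a threshold of 0.05. The fits were tested on simulated data. SE is limma's moderated standard error.

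Named genes were the 10 with the smallest p each way in the class comparison, since fewer than 5 were called, the probe sets called in the graded fit, and members of 30 gene lists (280 of 560 genes measured). The members and the lists were chosen with earlier results of these data known. The graded fit was planned only as an alternative to the class fit. Its use as a result of its own was chosen after seeing the data. So were its variations and the fits of lists without tumor 5 or with the Dap spike. Tumors are numbered in order of submission, and each is taken as a separate dog.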

Additional observations from a re-analysis of the deposited data

Results flagged for a closer look

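In a class of 7 or 8 tumors, 1 tumor at an end of the range was set far from the rest in several of 52 sets examined, which chance does in about 1 of 20. Among the CXCL8-low tumors, CCL2 was 8.59 in tumor 10 with the next at 7.08, and IL6 was 6.94 in tumor 10 with the next at 3.93. Tumor 10 had the highest CXCL8 of its class. ADM was 8.37 in tumor 4, FGF7 was 4.64 in tumor 13, SPINK2 was low at 7.37 in tumor 14, and RBCK1 was 7.30 in tumor 1. Among the CXCL8-high tumors, UBE4B was 8.28 in tumor 7 with the next at 7.81.

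CXCL8 was also high in samples that entered no comparison: it was 9.53 in cell line 1 and 12.56 in cell line 2, above the highest normal sample at 4.98.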

How the results depend on the processing

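The class comparison gave 0 calls in either direction under the 5′ index or Dap spike as a covariate, each class of 5′ signal alone, a split at the median (the same classes) or at the largest gap (9 against 6 tumors), brighter probe sets, another variance model, array weights, centring and a threshold of 0.01. With CXCL8 as a number it gave 15 and 3, and over the fits leaving out 1 tumor, 0 higher and 0 to 1 lower, the 1 without tumor 13. Of the named class differences, 807 of the alternative values kept direction and stayed uncalled, and 12 passed the threshold with CXCL8 as a number. Another 2 reversed: IL15 at -0.026 and UBE4B at 0.13, each on its other probe set. The cause of the reversals was not tested. No named difference was called in the main fit, and the genes were chosen on these same tumors. The 807 are therefore no support for the differences.

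The 15 rising and 3 falling probe sets became 4 and 1 with the 5′ index. They became 0 and 0 with the Dap spike, in full or low 5′ signal tumors alone, without the 2 highest, without the 2 farthest from the median, and by rank. They became 28 and 8 with the other CXCL8 probe set, 13 and 1 among brighter probe sets, and 15 and 0 with another variance model. Leaving out 1 tumor gave 0 to 22 and 0 to 4. The cause was not tested, beyond the smaller number of tumors in some fits. Slopes of the called probe sets reversed in 0 of these fits and lost the threshold in 310 of 466. Those probe sets were selected on the same tumors, so the kept direction is no separate support. The median difference of the angiogenic factors, 0.83, became 0.36 with the Dap spike, and that of skeletal muscle genes, 0.71, became -0.03 without tumor 5. The 5′ index difference was -1.94 to -1.10 without 1 tumor.

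No paired analysis was possible because the classes hold different tumors, each taken as a separate dog. With 8 and 7 tumors, dim genes near the floor of the scale and genes without a symbol are not resolved.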
